A study of Mus musculus with 8 samples.

Results

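The genes described here are the Ugt1a and Ugt3a glycosyltransferases of the mouse liver together with *Ugdh*, which makes the sugar donor of glucuronidation. They were chosen by gene symbol, as *Ugt1a1*, *Ugt1a5*, *Ugt1a6a*, *Ugt1a6b*, *Ugt1a9*, *Ugt3a1*, *Ugt3a2* and *Ugdh*, and are 8 of the 22564 genes in the table. All 8 passed the filter on low values. RNA-Seq was performed on livers of 4 mice fed a high-fructose diet (HFrD mice 1, 2, 5 and 7) and of 4 mice fed a normal diet (ND mice 1, 3, 6 and 7), with 1 library per mouse. All animals were male C57BL/6J mice, 10 to 11 weeks old, and each diet was given for 2 weeks. No transgene or deletion is listed for either group, and chloral hydrate was the anesthetic for all mice. The question of the comparison is how the high-fructose diet, used by the study to induce fatty liver, changes liver mRNA.

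Glucuronidation is the transfer of glucuronic acid from UDP-glucuronic acid to bilirubin, steroids, phenols and drugs, which makes them soluble for export in bile or urine. The UGT enzymes that do this sit in the endoplasmic reticulum of the hepatocyte, whereas UDP-glucuronic acid is made in the cytosol, where UGDH oxidises UDP-glucose, and is carried across the membrane. The Ugt1a enzymes all come from a single locus, in which each gene has its own promoter and first exon, spliced to a common set of later exons. The first exon encodes the part of the enzyme that binds the acceptor, and the common exons encode the part that binds the donor sugar.

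Measured values are FPKM, that is fragment numbers divided by transcript length and by library size, and so are levels per length. Fold changes are HFrD over ND on the log2(FPKM + 1) scale, which makes the change of a scarce gene look smaller than it is. The fit was made with limma over the 11476 genes averaging 0.5 FPKM or more, and a gene was counted as changed at a Benjamini-Hochberg adjusted p under 0.05. A two-sided exact permutation test over the 70 divisions of the 8 mice was added for single genes, and its smallest possible p is 0.0286. The p values set the difference between the diets against the variation between these mice, which the limma fit partly pools over all genes. Relative depth, estimated against ND mouse 1 from low FPKM values, lay between 1.13 and 1.49 for HFrD libraries and between 0.990 and 1.18 for ND libraries, while the absolute depth is unknown. The Mup genes took 6.73 to 9.78% of all FPKM from HFrD livers, against 12.0 to 15.2% from ND livers. In bulk liver, fewer cells of a type and less RNA per cell cannot be told apart.

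In the HFrD livers, 4 of the 8 genes fell (*Ugt1a1*, *Ugt1a6b*, *Ugt3a2* and *Ugdh*) and 1 rose (*Ugt1a5*). Over all genes tested, 9.12% were changed, 5.44% higher and 3.69% lower. This is 1047 genes, and leaving out 1 library gave 539 (without ND mouse 1) to 1293 (without HFrD mouse 1). With library medians set equal, 552 genes were higher and 614 lower, against 624 higher and 423 lower without that step. An unadjusted p under 0.05 was found for 2925 of the 11476 genes tested, the background for such counts given below. The groups did not overlap for 7 of the 8 genes, and they did not overlap for 16.6% of all genes tested, 7.01% with HFrD lower and 9.6% with HFrD higher. The median log2 fold change of the 8 genes was -0.49, against 0.01 over all genes tested. The same 5 genes were called in each of the other fits tried, with *Ugt3a1* as a further call in some of them. HFrD mouse 1 and ND mouse 7 lay nearest the other diet for *Ugt1a1*, and without both the same 5 genes were called. The study's own tables, drawn from these libraries, name *Ugt1a5* and *Ugt3a1*, so the direction of these genes is not independent evidence.

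**Figure D1:**
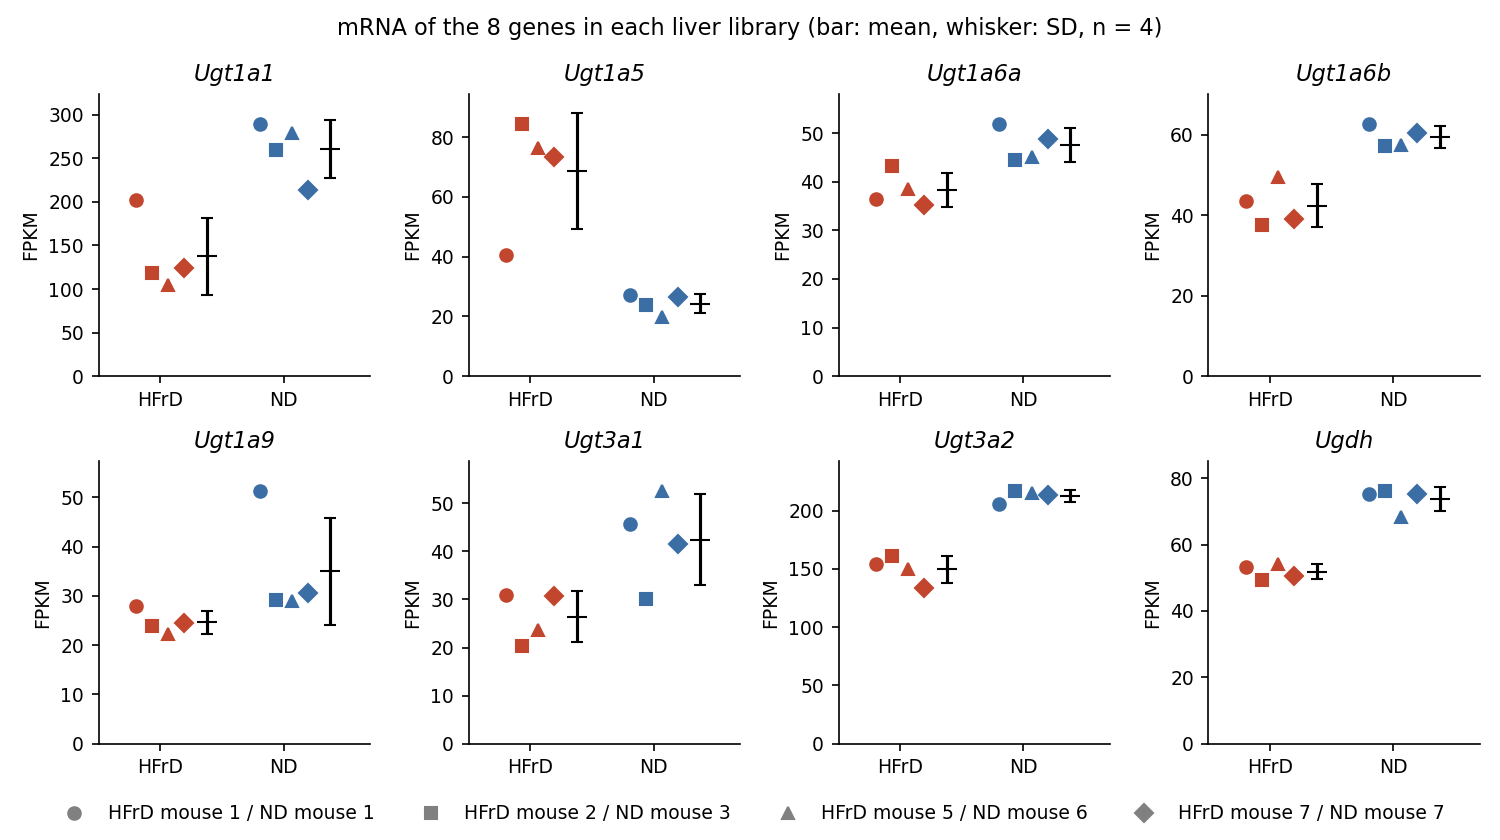
FPKM of each of the 8 genes (y axis, from 0) in the 4 HFrD and the 4 ND libraries, 1 point per mouse, with the group mean and SD (n = 4) beside the points. HFrD points lie below ND points without overlap for 6 genes, above them for *Ugt1a5*, and overlap with them for *Ugt3a1*, while HFrD mouse 1 lies nearest the ND mice for *Ugt1a1* and *Ugt1a5*.

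The 5 Ugt1a genes share 1 locus in the deposited table, chr1:88055387-88220002 on mm10, plus strand. In the GENCODE M21 annotation of GRCm38, the assembly called mm10, exon 2 of all 9 Ugt1a genes starts at 88215044 and is 132 bases long. Exon 1 of *Ugt1a1* lies at chr1:88211959-88212871, that of *Ugt1a5* at chr1:88166012-88166903, that of *Ugt1a6a* at chr1:88138378-88139331, that of *Ugt1a6b* at chr1:88106862-88107799 and that of *Ugt1a9* at chr1:88070800-88071678. The coding part of exon 1 is 849 to 870 bases long, and the coding sequence of the later exons, 735 bases, is common to all of them. The splice junctions are shown because they mark where the genes stop differing. Each sequence gives the last 24 bases of exon 1 in lower case and the first 24 bases of exon 2 in capitals.
Ugt1a1: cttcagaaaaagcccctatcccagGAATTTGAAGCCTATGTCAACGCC
Ugt1a5: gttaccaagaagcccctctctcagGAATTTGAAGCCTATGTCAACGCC
Ugt1a6a: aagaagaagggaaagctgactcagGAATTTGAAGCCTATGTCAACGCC
Ugt1a6b: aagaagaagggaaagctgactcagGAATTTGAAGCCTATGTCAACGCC
Ugt1a9: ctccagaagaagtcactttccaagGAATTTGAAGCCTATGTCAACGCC
The right side is identical in all 5, and the junctions of *Ugt1a6a* and *Ugt1a6b* are identical on both sides. Coding identity of exon 1 is 97.0% between *Ugt1a6a* and *Ugt1a6b* and 61.2% between *Ugt1a1* and *Ugt1a5*. Among transcripts of the other Ugt genes, every 100-base window of the first coding exon of *Ugt1a1* and of *Ugt1a9* was found in its own gene alone, and so were 97.7% of those of *Ugt1a5*, the rest being shared with *Ugt1a2*. For *Ugt1a6b* the share was 75.0%, and for *Ugt1a6a* it was 0%, because an annotated transcript of *Ugt1a7c* includes the *Ugt1a6a* exon. The values of *Ugt1a6a* and *Ugt1a6b*, and the division of fragments from the common exons among all Ugt1a genes, are therefore uncertain.

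*Ugt1a1* encodes the main enzyme of bilirubin conjugation. It had 202.2, 118.7, 105.0 and 123.6 FPKM in HFrD mice 1, 2, 5 and 7, against 289.6, 260.0, 279.3 and 214.0 FPKM in ND mice 1, 3, 6 and 7. All HFrD libraries lay below all ND libraries, although HFrD mouse 1 came close to ND mouse 7. Mean FPKM was 137.3 ± 43.9 in HFrD and 260.7 ± 33.5 in ND mice (SD, n = 4 each), and *Ugt1a1* fell by 0.96 ± 0.19 (SE) on the log2 scale (limma adjusted p = 0.0142).

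*Ugt1a5* is the gene that moved the other way. It had 40.6, 84.4, 76.3 and 73.3 FPKM in HFrD mice 1, 2, 5 and 7, against 27.1, 23.7, 19.9 and 26.5 FPKM in ND mice 1, 3, 6 and 7. The groups did not overlap, and HFrD mouse 1 was again the HFrD library nearest the ND mice. Mean FPKM was 68.7 ± 19.3 in HFrD and 24.3 ± 3.25 in ND mice (SD, n = 4 each), a ratio of 2.83. The log2 fold change was 1.42 ± 0.21 (SE, limma adjusted p = 0.00386). Of the genes higher in HFrD, 8.49% had a larger log2 fold change.

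**Figure D2:**
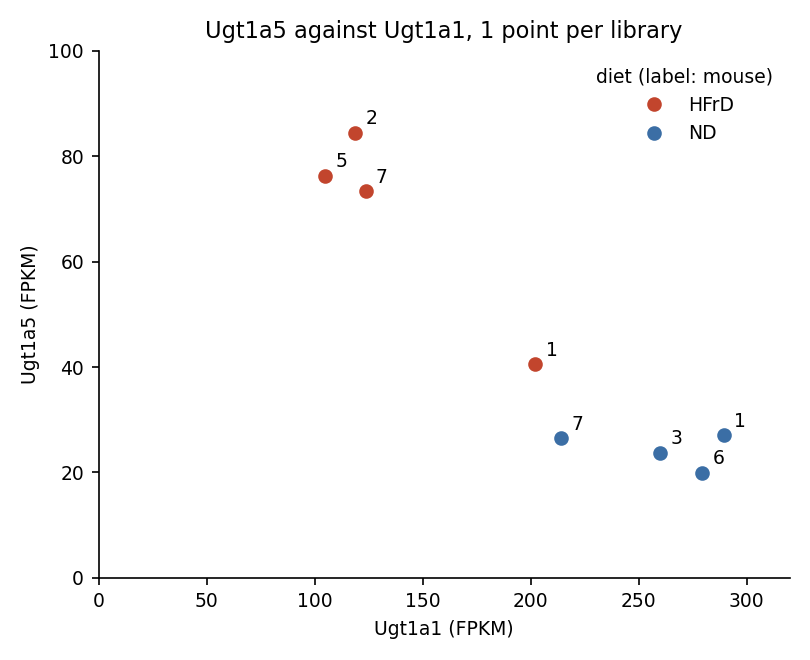
*Ugt1a5* FPKM (y axis) against *Ugt1a1* FPKM (x axis), 1 point per library, with the mouse number beside each point. HFrD mice 2, 5 and 7 sit at 105.0 to 123.6 FPKM of *Ugt1a1* and 73.3 to 84.4 FPKM of *Ugt1a5*, the ND mice at 214.0 to 289.6 and 19.9 to 27.1 FPKM, and HFrD mouse 1 between them.

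The opposite moves of *Ugt1a1* and *Ugt1a5* were also set side by side within each library. The log2(FPKM + 1) of *Ugt1a5* minus that of *Ugt1a1* was -0.99 ± 0.87 in HFrD and -3.37 ± 0.32 in ND mice (SD, n = 4 each), a difference of 2.38. It is given without a test, since neither gene overlaps between the diets and their difference then had to separate them. As a ratio of levels, *Ugt1a1* was 4.98, 1.41, 1.38 and 1.68 times *Ugt1a5* in HFrD mice 1, 2, 5 and 7, against 10.7, 11.0, 14.0 and 8.09 times in ND mice 1, 3, 6 and 7. *Ugt1a1* was the more abundant mRNA in all 8 livers.

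The promoters of these genes are shown because *Ugt1a1* and *Ugt1a5*, in 1 locus, moved in opposite directions, together with that of *Ugdh*. Each is a 300-base RefSeq window on GRCm38.p6, and matches to 5 motifs are in capitals. Positions are counted from the start that the window assumes, 50 bases before its end. For *Ugt1a1* and *Ugt1a5* this is the start of exon 1 in GENCODE M21. Exon 1 of *Ugdh* lies there at chr5:65435624-65435949, so the *Ugdh* window reaches more than 50 bases into the gene. The entries are chr1:88211709-88212008 (plus strand) for *Ugt1a1*, chr1:88165762-88166061 (plus strand) for *Ugt1a5* and chr5:65435793-65436092 (minus strand) for *Ugdh*.
Ugt1a1: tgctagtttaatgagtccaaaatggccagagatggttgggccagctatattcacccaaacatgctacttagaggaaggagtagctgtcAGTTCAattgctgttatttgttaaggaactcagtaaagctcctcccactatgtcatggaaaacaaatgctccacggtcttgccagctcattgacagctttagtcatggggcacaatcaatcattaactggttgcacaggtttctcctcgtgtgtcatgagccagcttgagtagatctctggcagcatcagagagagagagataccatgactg
Ugt1a5: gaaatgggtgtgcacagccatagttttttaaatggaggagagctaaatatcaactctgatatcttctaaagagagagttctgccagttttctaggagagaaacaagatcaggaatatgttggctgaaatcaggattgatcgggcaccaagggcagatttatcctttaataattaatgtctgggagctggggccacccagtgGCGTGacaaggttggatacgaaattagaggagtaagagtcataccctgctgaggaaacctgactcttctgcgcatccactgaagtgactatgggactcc
Ugdh: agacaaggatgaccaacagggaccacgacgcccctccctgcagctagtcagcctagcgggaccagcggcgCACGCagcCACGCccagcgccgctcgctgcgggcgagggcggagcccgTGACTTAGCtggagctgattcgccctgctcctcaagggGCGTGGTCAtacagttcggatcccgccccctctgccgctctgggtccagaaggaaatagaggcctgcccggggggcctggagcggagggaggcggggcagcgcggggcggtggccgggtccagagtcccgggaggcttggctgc
The motifs searched on both strands were GCGTG (the xenobiotic response core), TGACNNNGC (the antioxidant response core), CACGTG (an E-box), and AGGTCA and AGTTCA. The last named are single half-sites of nuclear receptor elements, not whole elements. RefSeq promoters were matched for 6 of the 8 genes, all but *Ugt1a6b* and *Ugt3a2*. GCGTG, found in 32.4% of 32851 promoters, was present at -49 in *Ugt1a5* and 3 times in *Ugdh*, where TGACNNNGC, found in 12.4%, was also present 2 times, once overlapping a GCGTG at -94. AGTTCA (14.0% of promoters) occurred at -162 in *Ugt1a1*, AGGTCA (16.3%) in *Ugt1a9*, and CACGTG (7.15%) in none of the 6. The *Ugdh* matches at -94 lie within its exon 1 as annotated in GENCODE M21. All matches describe the letters of the windows and nothing more. G and C make up 71.0% of the *Ugdh* window, 45.3% of that of *Ugt1a1* and 44.7% of that of *Ugt1a5*, and the median over all promoters is 52.7%.

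*Ugt1a6a* and *Ugt1a6b* encode near-identical enzymes of the kind that conjugates simple phenols. *Ugt1a6b* had 43.4, 37.5, 49.4 and 39.1 FPKM in HFrD mice 1, 2, 5 and 7, against 62.7, 57.2, 57.3 and 60.4 FPKM in ND mice 1, 3, 6 and 7. It fell by 0.48 ± 0.10 (SE) on the log2 scale (limma adjusted p = 0.0151), with a gap between the groups. *Ugt1a6a* had 36.5, 43.2, 38.6 and 35.2 FPKM in HFrD mice 1, 2, 5 and 7, against 51.9, 44.4, 45.2 and 48.9 FPKM in ND mice 1, 3, 6 and 7. Here too the groups did not overlap (exact permutation p = 0.0286), but the log2 fold change of -0.31 ± 0.09 (SE) did not pass the test over all genes (limma adjusted p = 0.0636). Since the pair shares most of its sequence, a difference between them was not read from these values.

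*Ugt1a9*, whose human counterpart conjugates phenols and drugs such as propofol, had 27.9, 23.8, 22.2 and 24.5 FPKM in HFrD mice 1, 2, 5 and 7, against 51.2, 29.2, 29.0 and 30.6 FPKM in ND mice 1, 3, 6 and 7. ND mouse 1 stands far above the other ND mice, and the remaining ND values lie just above the highest HFrD value. The log2 fold change was -0.45 ± 0.17 (SE) and did not pass the test (limma adjusted p = 0.128), and without ND mouse 1 it was -0.26.

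Summed over the 5 genes, Ugt1a mRNA was 311.3 ± 27.0 FPKM in HFrD livers and 427.0 ± 42.5 FPKM in livers of ND mice (SD, n = 4 each), 0.729 times the ND level, and the groups did not overlap (291.4 to 350.6 FPKM in HFrD, 380.4 to 482.5 FPKM in ND mice). A sum depends less on how fragments of the common exons were divided among the genes. With *Ugt1a1* left out, the sum was 174.0 ± 18.6 FPKM in HFrD livers and 166.3 ± 18.9 FPKM in livers of ND mice (SD, n = 4 each), with overlapping groups. *Ugt1a5* had the higher mean in HFrD mice and the other 3 genes of this sum had lower means. With *Ugt1a5* left out, it averaged 242.7 FPKM in HFrD livers (215.1 to 310.0) and 402.7 FPKM in ND livers (353.9 to 455.4). The 4 other Ugt1a genes were scarce, with means of 0.737 to 2.44 FPKM in HFrD livers and 1.39 to 2.88 FPKM in ND livers. After adjustment 0 of the 4 passed the limma test (adjusted p 0.0782 to 0.520), with 1 at an unadjusted p under 0.05 and 1 by the exact permutation test. With them the sum of all 9 genes was 317.0 FPKM in HFrD livers and 434.9 FPKM in ND livers.

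The make-up of the sum also differed. *Ugt1a5* gave 11.6, 27.4, 26.2 and 24.8% of it in HFrD mice 1, 2, 5 and 7, against 5.61, 5.72, 4.63 and 6.96% in ND mice 1, 3, 6 and 7. These shares had to separate the diets, since *Ugt1a5* was higher and the sum lower in every HFrD library, so their lack of overlap is no further result. *Ugt1a1* gave 57.7, 38.6, 36.0 and 41.8% in HFrD mice 1, 2, 5 and 7, against 60.0, 62.7, 64.8 and 56.3% in ND mice 1, 3, 6 and 7, where HFrD mouse 1 fell within the ND range. The shares of *Ugt1a6a* (12.4% in HFrD, 11.2% in ND mice), *Ugt1a6b* (13.7% in HFrD, 14.0% in ND mice) and *Ugt1a9* (7.90% in HFrD, 8.11% in ND mice) overlapped between the diets.

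**Figure D3:**
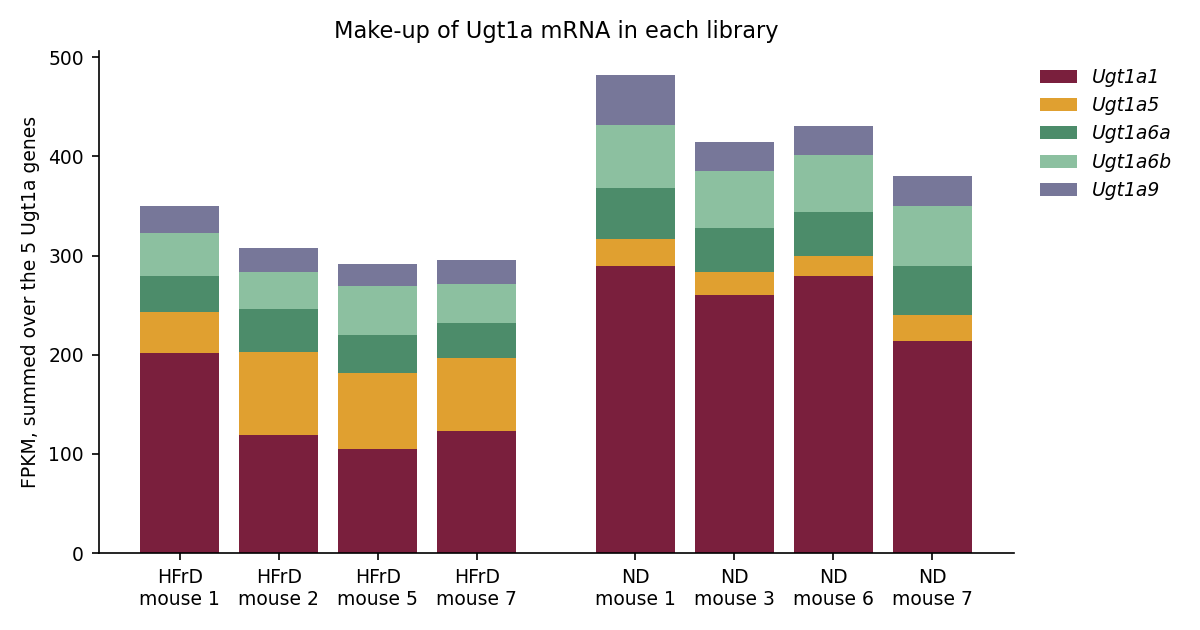
FPKM of the 5 Ugt1a genes stacked for each library (y axis, summed FPKM, from 0), the 4 HFrD libraries left of the 4 ND libraries. The HFrD columns reach 291.4 to 350.6 FPKM and the ND columns 380.4 to 482.5 FPKM, and the *Ugt1a5* segment is 11.6 to 27.4% of the HFrD columns and 4.63 to 6.96% of the ND columns.

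*Ugt3a1* and *Ugt3a2* lie next to each other on chromosome 15, at chr15:9273318-9315032 and chr15:9335549-9370955 in the deposited table. Their human counterparts use sugar donors other than UDP-glucuronic acid, UDP-N-acetylglucosamine in the case of UGT3A1, and UDP-glucose or UDP-xylose in that of UGT3A2. Their coding sequences are 93.3% identical, and no 100-base window is shared between them. *Ugt3a2* had 154.3, 160.8, 149.9 and 133.3 FPKM in HFrD mice 1, 2, 5 and 7, against 205.7, 216.5, 214.7 and 212.9 FPKM in ND mice 1, 3, 6 and 7. The groups were wide apart, and *Ugt3a2* fell by 0.51 ± 0.08 (SE) on the log2 scale (limma adjusted p = 0.00555). *Ugt3a1* had 30.9, 20.3, 23.6 and 30.8 FPKM in HFrD mice 1, 2, 5 and 7, against 45.8, 30.05, 52.5 and 41.5 FPKM in ND mice 1, 3, 6 and 7. ND mouse 3 fell below HFrD mice 1 and 7, so the groups overlapped (exact permutation p = 0.0857). Its log2 fold change was -0.66 ± 0.18 (SE) and just missed the threshold (limma adjusted p = 0.0513). With each library left out in turn it was -0.81 to -0.55, and the limma adjusted p was 0.0279 when ND mouse 3 was omitted, 0.0411 when HFrD mouse 1 was omitted and 0.0644 to 0.122 for the other omissions.

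The log2(FPKM + 1) of *Ugt3a1* minus that of *Ugt3a2* was -2.48 ± 0.37 in HFrD and -2.32 ± 0.35 in ND mice (SD, n = 4 each), a difference of -0.15 (exact permutation p = 0.543), so no difference between the fold changes of the pair was detectable with these mice. Together the pair reached 176.0 ± 9.28 FPKM in HFrD livers and 254.9 ± 8.84 FPKM in livers of ND mice (SD, n = 4 each), 0.690 times the ND level. *Ugt3a2* gave 84.9% of this sum in HFrD and 83.4% in ND mice.

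*Ugdh*, at chr5:65413201-65435946 on the minus strand, makes UDP-glucuronic acid. It had 53.3, 49.4, 54.2 and 50.6 FPKM in HFrD mice 1, 2, 5 and 7, against 75.2, 76.0, 68.3 and 75.1 FPKM in ND mice 1, 3, 6 and 7. This was the gene with the tightest HFrD values of the 8, with a coefficient of variation of 4.31% in HFrD and 4.91% in ND mice. *Ugdh* fell by 0.50 ± 0.07 (SE) on the log2 scale (limma adjusted p = 0.00433), without overlap between the groups.

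**Figure D4:**
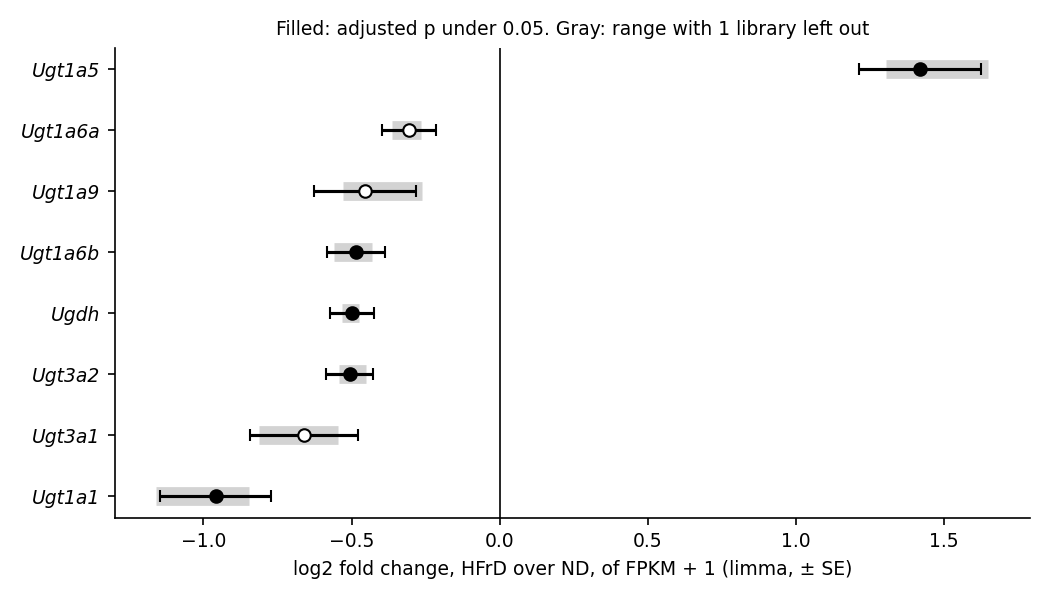
Log2 fold change of each gene, HFrD over ND (x axis), with its SE. Filled points passed the limma test, and gray bars give the range when each library was left out in turn. *Ugt1a5* lies at 1.42 and the other 7 genes between -0.96 and -0.31, and no gray bar crosses 0.

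Ordered by level, the ND livers ran from *Ugt1a1* (260.7 FPKM) over *Ugt3a2* (212.4), *Ugdh* (73.7), *Ugt1a6b* (59.4), *Ugt1a6a* (47.6), *Ugt3a1* (42.5) and *Ugt1a9* (35.0) to *Ugt1a5* (24.3 FPKM). Among neighbours in this order, *Ugt1a1* and *Ugt3a2*, *Ugt1a6a* and *Ugt3a1*, and *Ugt3a1* and *Ugt1a9* had overlapping libraries. In the HFrD livers *Ugt3a2* (149.6 FPKM) and *Ugt1a1* (137.3 FPKM) overlapped at the top, and *Ugt1a5* (68.7 FPKM) stood next, overlapping with *Ugdh* (51.9 FPKM). *Ugt1a5* was thus the lowest of the 8 in ND mice and ranked 3 of 8 in HFrD mice.

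The genes that neighbour the members are too few to be told apart from all genes tested, of which 9.12% were changed. At the loci nearest to Ugt1a, 0 of 4 tested genes passed the limma test after adjustment, with 1 at an unadjusted p under 0.05 and 0 by the exact permutation test. Beside *Ugdh*, 0 of 2 genes passed by any of these measures. Beside the Ugt3a pair, *Lmbrd2* had 24.3 ± 0.82 FPKM in HFrD livers and 31.6 ± 1.78 FPKM in livers of ND mice (SD, n = 4 each), that is -0.36 on the log2 scale (limma adjusted p = 0.0190). It was the 1 gene called of 3 tested there, while 2 of the 3 had an unadjusted p under 0.05 and also passed the exact permutation test. The other of these, *Agxt2*, named after its values were seen, had 68.1 ± 8.86 FPKM in HFrD livers and 87.8 ± 6.36 FPKM in livers of ND mice (SD, n = 4 each), that is -0.37 on the log2 scale (limma adjusted p = 0.0595). It is not close to the pair, since its locus is chr15:10177237-10410153 and *Ugt3a2* ends at 9370955.

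Across the 8 libraries, the genes whose log2(FPKM + 1) ran most nearly parallel to *Ugdh* among the 6612 genes averaging 5 FPKM or more were *Ugt2b35* (Pearson r = 0.99), *Cmbl*, *Chd9*, *Ddah1* and *Mmp19*. Those nearest the summed Ugt1a were *Hars2* (r = 0.99), *Ces1d*, *Ppa2*, *Fam188a* and *Sppl2a*, and those nearest *Ugt3a1* were *Cxxc1* (r = 0.99), *5031425E22Rik*, *Gigyf2*, *Cdh2* and *Brd2*. Added after their values had been seen, *Ugt1a1* ran most closely with *Zcchc6* (r = 0.99), and *Ugt1a5* with *Scd1* (r = 0.99), the stearoyl-CoA desaturase of fat synthesis, which had 7722 FPKM in HFrD livers and 497.7 FPKM in ND livers. All of these r values are descriptions over 8 libraries in 2 diets, and any gene that differs between the diets shares the same division.

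The lists of related genes that follow hold some genes that the study's tables name from these libraries, so their directions are not independent evidence. Of 8 genes listed for the supply of UDP-glucuronic acid and its exit to other sugars, *Ugdh* and *Slc35d1* fell by the limma test, *Uxs1* rose and 5 passed in neither direction, with a median log2 fold change of 0.06. *Ugp2*, which makes UDP-glucose, had 225.1 FPKM in HFrD livers and 180.2 FPKM in ND livers and did not pass (limma adjusted p = 0.185). Downstream of *Ugdh*, *Slc35d1*, which carries UDP-glucuronic acid into the endoplasmic reticulum, had 33.0 ± 7.66 FPKM in HFrD livers and 56.7 ± 4.69 FPKM in livers of ND mice (SD, n = 4 each, limma adjusted p = 0.0138). *Uxs1*, which uses up UDP-glucuronic acid to make UDP-xylose, had 7.29 ± 1.05 FPKM in HFrD livers and 4.23 ± 0.69 FPKM in livers of ND mice (SD, n = 4 each, limma adjusted p = 0.0151). Among 10 genes of the glucuronate and ascorbate branch, *Aldh2* was higher (log2 fold change 0.33, limma adjusted p = 0.0210), *Sord*, which oxidises sorbitol to fructose, was lower (log2 fold change -0.43, limma adjusted p = 0.0492), and 8 did not pass. Of 5 tested genes that use UDP-glucuronic acid for matrix sugars, 0 passed the limma test after adjustment, with 1 at an unadjusted p under 0.05 and 0 by the exact permutation test, and the median log2 fold change was 0.06.

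In the list of haem breakdown and bilirubin handling, the pathway that *Ugt1a1* serves, all genes called lower were membrane carriers. Over all genes tested, 3.69% were lower and 5.44% higher. Of 13 genes, 5 fell and 1 rose by the limma test and 7 passed in neither direction, with a median log2 fold change of -0.24. *Abcc2*, which exports bilirubin glucuronides into bile, had 167.7 ± 12.0 FPKM in HFrD livers and 239.2 ± 24.2 FPKM in livers of ND mice (SD, n = 4 each, log2 fold change -0.51, limma adjusted p = 0.0111). *Abcc3*, which exports them into blood, had 15.7 ± 6.20 FPKM in HFrD livers and 55.4 ± 6.80 FPKM in livers of ND mice (SD, n = 4 each, log2 fold change -1.82). The uptake carriers *Slco1a4*, *Slco1a1* and *Slco1b2* changed by -1.38, -0.51 and -0.50 on the log2 scale. *Hmox1*, which opens the haem ring, had 7.79 ± 1.47 FPKM in HFrD livers and 4.32 ± 1.33 FPKM in livers of ND mice (SD, n = 4 each, limma adjusted p = 0.0490). The other enzymes of haem breakdown, named after their values were seen, did not pass. Their log2 fold changes were 0.24 for *Hmox2*, 0.19 for *Blvra* and -0.17 for *Blvrb*.

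**Figure D5:**
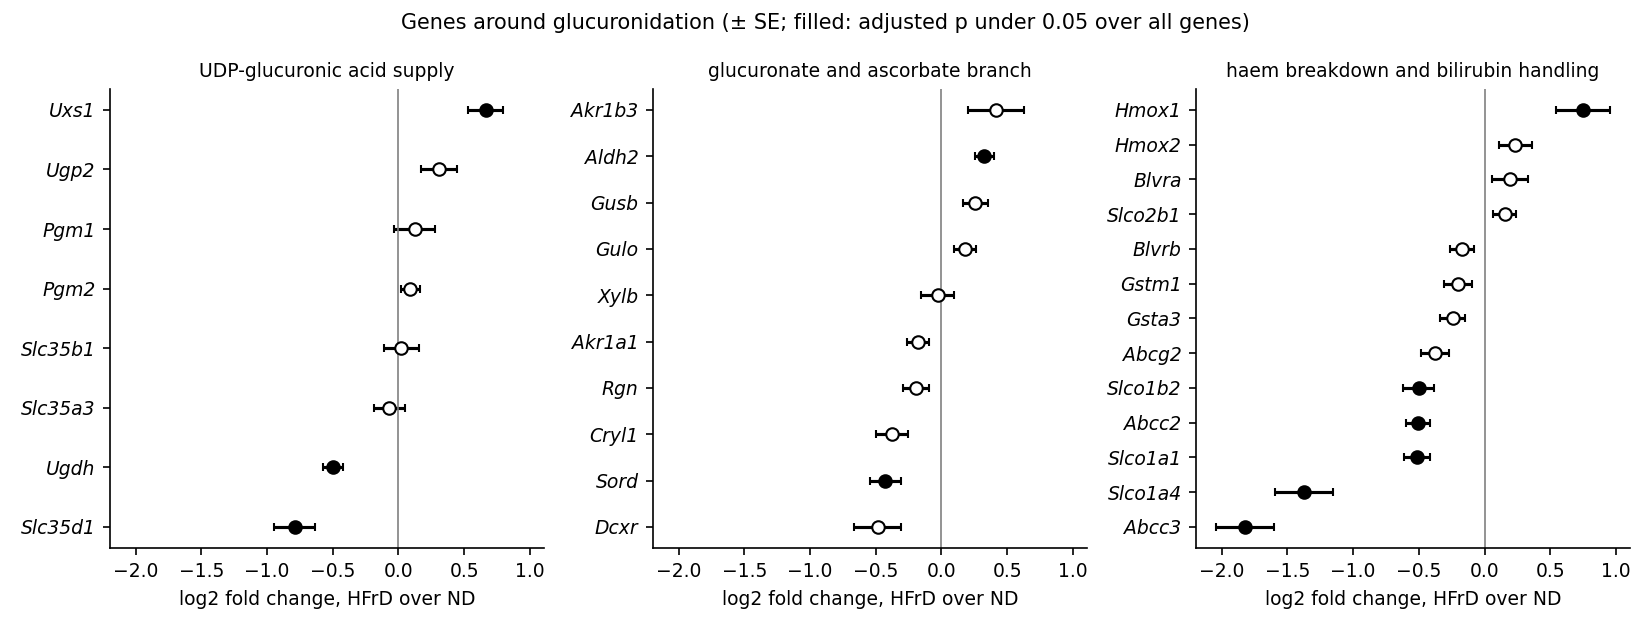
Log2 fold change, HFrD over ND (x axis), with SE, for the tested genes of 3 lists around glucuronidation. Filled points passed the limma test over all genes, and they lie on both sides of 0 in each list, from -1.82 for *Abcc3* to 0.75 for *Hmox1*.

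Of 12 other UDP-glycosyltransferases tested, 7 were lower and 0 higher (also 0 higher at an unadjusted p under 0.05), with a median log2 fold change of -0.70, and all 7 were Ugt2 genes (*Ugt2a3*, *Ugt2b1*, *Ugt2b5*, *Ugt2b34*, *Ugt2b35*, *Ugt2b36* and *Ugt2b38*). Their log2 fold changes were -1.44 for *Ugt2b38* to -0.61 for *Ugt2b36*, beside -0.96 for *Ugt1a1*, -0.51 for *Ugt3a2*, -0.50 for *Ugdh* and -0.48 for *Ugt1a6b*, and differences between these genes were not tested. Sulfation competes for many of the same phenols, and its list holds sulfotransferases together with genes that make or carry their sulfate donor. Of 11 such genes tested, 2 were higher, 1 was lower and 8 did not pass. The changed genes were all sulfotransferases, *Sult1a1* (log2 fold change 0.43), *Sult1b1* (log2 fold change -0.77) and *Sult1c2* (log2 fold change 0.95), the last named after its values were seen.

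Known targets of the xenobiotic receptors CAR and PXR, which act on *Ugt1a1* in liver, had 10 lower, 1 higher and 1 not passed of 12 tested, with a median log2 fold change of -1.05. *Cyp3a11* had 418.3 ± 180.7 FPKM in HFrD livers and 1697 ± 388.2 FPKM in livers of ND mice (SD, n = 4 each, log2 fold change -2.09). *Cyp2a5* and *Cyp3a25* changed by -1.33 and -1.48 on the log2 scale. The 1 target called higher was *Gstm2* (log2 fold change 1.09, limma adjusted p = 0.0145), whose groups did not overlap. *Gstm2* is counted again among the Nrf2 targets below. *Abcc3* and *Slco1a4*, both lower, belong to this list and to that of bilirubin handling. *Hmox1*, called higher, belongs to the list of bilirubin handling and to the Nrf2 targets. The counts of these lists are therefore not separate. Among 3 tested targets of the aryl hydrocarbon receptor, *Cyp1a2* was lower (143.3 ± 17.6 FPKM in HFrD, 372.0 ± 22.8 FPKM in livers of ND mice, SD, n = 4 each, log2 fold change -1.38) and 2 did not pass. The Nrf2 targets went both ways, with 3 higher, 3 lower and 9 not passed of 15, from *G6pdx* at 2.31 to *Gsta2* at -1.78 on the log2 scale. Of 12 PPARα targets, 0 passed the limma test after adjustment, with 4 at an unadjusted p under 0.05 and 0 by the exact permutation test. Such an unadjusted p was found for 2925 of 11476 genes over all tested.

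Among 12 transcription factors and partners known to act on Ugt1a genes, 1 was higher and 11 did not pass. *Keap1* had 9.95 ± 0.78 FPKM in HFrD livers and 7.61 ± 0.21 FPKM in livers of ND mice (SD, n = 4 each, limma adjusted p = 0.0412). *Nr1i3*, which encodes CAR and was picked out after its values were seen, had 39.6 ± 19.4 FPKM in HFrD livers and 76.8 ± 21.1 FPKM in livers of ND mice (SD, n = 4 each). *Nr1i3* did not pass (limma adjusted p = 0.0734), and its groups overlapped. *Nr3c1*, also named after its values were seen, did not pass either (log2 fold change -0.28, limma adjusted p = 0.0660). Its groups did not overlap (exact permutation p = 0.0286). *Hnf4a*, the factor with the highest mean, changed by -0.06 on the log2 scale (limma adjusted p = 0.662). The part of these factors in the values of the Ugt genes was not tested.

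Hepatocyte markers were abundant in every liver, *Alb* having 33791 FPKM in HFrD livers and 27975 FPKM in ND livers. Of 5 hepatocyte markers, *Ttr* was higher and 4 did not pass, and their sum was 39954 to 48336 FPKM in HFrD livers and 33845 to 43184 FPKM in ND livers. Kupffer cell markers were 3 higher and 1 not passed of 4, and summed to 96.7 to 149.5 FPKM in HFrD livers and 53.8 to 83.7 FPKM in ND livers. Sinusoidal endothelium markers were 1 higher and 3 not passed of 4, and summed to 61.2 to 72.9 FPKM in HFrD livers and 49.0 to 59.6 FPKM in ND livers. Of 4 stellate cell markers, 0 passed the limma test after adjustment, but 2 had an unadjusted p under 0.05 and also passed the exact permutation test. These were *Col1a1*, at 0.891 to 4.38 FPKM in HFrD livers and 0.434 to 0.621 FPKM in livers of ND mice, and *Dcn*, at 71.5 ± 1.75 FPKM in HFrD livers and 57.6 ± 8.81 FPKM in livers of ND mice (SD, n = 4 each), *Col1a1* being named after its values were seen. The stellate markers summed to 99.5 to 104.1 FPKM in HFrD livers, against 72.0 to 99.7 FPKM in ND livers. Mitochondrial genes took 4.90 to 6.00% of FPKM from HFrD livers, against 4.47 to 4.78% from ND livers. The part of these other cells and of the mitochondrial share in the values of the Ugt genes was not tested. Of the cholangiocyte (2), intestinal (2) and kidney (1) markers tested, 0 passed the limma test, with or without adjustment, and 0 the exact permutation test. The intestinal factor *Cdx2* was listed at 0 in all libraries, and the kidney markers summed to 0.068 to 1.703 FPKM in HFrD livers and 0.052 to 6.54 FPKM in ND livers.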

How the data were processed

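Liver RNA of 8 mice was sequenced, 1 library per mouse. Reads were trimmed (Cutadapt 1.9.3) and mapped to mm10 (HISAT2 2.0.4) by the authors. The submitters' processing notes also list Cufflinks and Cuffdiff. The deposited FPKM, 1 value per gene and library, were scaled by the authors to the fragments of each library. How fragments of shared exons were divided, the strand setting and the annotation release are not given in the sources used here. The study's methods and the labels name different strand-specific kits. The authors' own fold changes and p-values were left aside. MeRIP-Seq samples and *db/db* mice were not analysed here.

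Groups came from the labels. The members and the gene lists were chosen with earlier results of these data known. The deposited FPKM were taken as log2(FPKM + 1). The 11476 genes averaging 0.5 FPKM or more entered a two-sided limma fit (limma 3.58.1, R 4.3.3) with a variance trend in eBayes and Benjamini-Hochberg adjustment. The procedure was tested on simulated data. For a single value, the exact permutation test ran over 70 relabellings. Sums and shares were described without a test. All 8 members were named, and from each list the changed genes averaging 5 FPKM or more, up to the 6 smallest adjusted p, and the gene with the highest mean. Of the listed names, *Sult2a8*, *Ugt2a2* and *Adgre1* matched no gene. Exons, transcripts and windows were read from GENCODE M21, and promoters from RefSeq (GRCm38.p6), using Biopython 1.88, pandas 2.3.3 and numpy 2.4.6 under Python 3.11.15. Plots were made with matplotlib 3.10.9.

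The alternatives were a pseudocount of 0.1 FPKM, no filter, a filter at 1 FPKM, quantile normalization, equal medians, scaling of the sums without the Mup genes, array weights, no trend, the mouse number as a replicate block, and omission of every library in turn. Leaving out HFrD mouse 1 and ND mouse 7 together, and summing all 9 Ugt1a genes, were added after seeing the data. Some items are not reported here. Read counts were not used here, so no counting error can be given for a single value.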

Additional observations from a re-analysis of the deposited data

Results flagged for a closer look

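Of 40 sets of 4 values checked, 6 held a value whose gap to the nearest other exceeded Dixon's critical share of the range, and chance gives such a value in about 1 in 20 sets. In HFrD mouse 1 the ratio of *Ugt1a1* to *Ugt1a5* was 4.98 (1.38 to 1.68 in the other HFrD mice), the *Ugt1a5* share of Ugt1a mRNA was 11.6% (24.8 to 27.4%), and the Ugt1a sum without *Ugt1a5* was 310.0 FPKM (215.1 to 223.2 FPKM). These 3 values share genes and come from 1 mouse, so they are not separate observations. *Ugt1a9* had 51.2 FPKM in ND mouse 1, whereas the other ND mice had 29.0 to 30.6 FPKM. *Ugdh* had 68.3 FPKM in ND mouse 6, whereas the others had 75.1 to 76.0 FPKM. The *Ugt1a6a* share of Ugt1a mRNA was 12.9% in ND mouse 7, against 10.5 to 10.8% in the other ND mice. The causes were not tested.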

How the results depend on the processing

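Scaling without the Mup genes was applied to the Ugt1a and Ugt3a sums alone. In the other alternatives, each run as a limma fit, no member changed direction. *Ugt1a1*, *Ugt1a5*, *Ugt1a6b*, *Ugt3a2* and *Ugdh* passed the limma test in all of them, and *Ugt1a6a* and *Ugt1a9* in none. *Ugt3a1*, at an adjusted p of 0.0513, crossed the threshold with a filter at 1 FPKM (log2 fold change -0.66), quantile normalization (-0.67), equal medians (-0.68), array weights (-0.68) and the replicate block (-0.66), and its range with 1 library left out was -0.81 to -0.55. Its adjusted p was 0.0431 to 0.0970 over the fits that kept all libraries or left out HFrD mouse 1 and ND mouse 7, and 0.0279 to 0.122 with 1 library left out. The number of changed genes was 1047, of which 59.6% were higher in HFrD, and 1093 with the replicate block. The 2 mouse numbers that occur in both diets showed correlations of 0.08 and -0.01, within the -0.14 to 0.11 of mice with unlike numbers. Only 2 such values cannot settle whether the mice are paired. The replicate block changed no other member's call. With 1 library left out, 539 to 1293 genes changed, 340 to 659 of them higher and 183 to 634 lower. The count was 539 to 651 when HFrD mouse 2, 5 or 7 or ND mouse 1, 3 or 6 was the one left out. Without HFrD mouse 1 and ND mouse 7, a fit added after seeing the data, 701 genes were lower. Equal medians gave 552 higher and 614 lower genes, and quantile normalization 568 higher and 542 lower, against 624 higher and 423 lower as reported. Without the Mup genes in the scaling, the Ugt1a sum was 306.7 FPKM in HFrD and 433.4 FPKM in ND mice. The causes were not tested. The 4 mice a group, the division of shared exons and an unknown depth limit what the values of single Ugt1a genes can show.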
